A study of Homo sapiens with 6 samples.

Results

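The 10 genes described here encode the enzymes of serine synthesis and of the folate-bound one-carbon cycle in the cytosol and in mitochondria. They were listed by name as enzymes of the pathway, with earlier results of these data known, and all 10 were found among the 60651 gene identifiers counted. They are PHGDH, PSAT1 and PSPH, which make serine from a glycolytic intermediate, SHMT2, MTHFD2, MTHFD2L, MTHFD1L and ALDH1L2 of the mitochondria, and SHMT1 and MTHFD1 of the cytosol.

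SK-N-AS is a human neuroblastoma cell line without MYCN amplification. The cells carried a stably transfected MYCN expression system that tetracycline switches on by releasing the tetracycline repressor, and cultures of both groups were kept under G418 and Blasticidin selection. The 3 MYCN-induced libraries came from cells given tetracycline for 120 h (5 days), and the 3 control libraries, marked ETOH in their titles, came from the same time point. Total RNA was sequenced after removal of ribosomal RNA. The study describes its 3 replicates as biologically independent experiments. The model was kept as single clones, and the sources used here do not state whether all libraries came from 1 clone. Tetracycline was given to the induced cells only, so an effect of the drug and an effect of MYCN cannot be told apart.

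Total counts per library ran from 64500589 to 102249336. Levels are given as TMM-scaled CPM, the counts of a gene relative to the library's total after an adjustment for composition, so they are shares of the RNA and not amounts per cell. MYCN itself was at 30.3, 35.5 and 32.4 CPM in control replicates 1 to 3 and at 211, 221 and 199 CPM in MYCN-induced replicates 1 to 3, a log2 fold change of 2.68 (SE 0.08, edgeR adjusted p = 4.15e-05). On the principal component that held 44.5% of the variance, controls lay between -41.5 and -27.2, MYCN-induced replicates 1 and 2 at 14.9 and 13.1 and MYCN-induced replicate 3 at 72.6. MYCN-induced replicate 3 thus stood apart from the other induced libraries, and values without it are given beside the main results that it moves. Of the neuroblastoma markers, 8 of 9 adrenergic genes and 7 of 8 mesenchymal genes averaged at least 1 CPM, while CD44 was listed at 0 in every library. Their summed levels were 928 to 1319 CPM (adrenergic) and 510 to 533 CPM (mesenchymal) in controls, against 938 to 1135 and 588 to 661 CPM in induced libraries. Summed fibroblast markers (COL1A1, DCN, LUM) were at 1813 to 2359 CPM in controls and 1289 to 1941 CPM after induction, all 3 of them being detected. Schwann, endothelial and immune lists each summed to at most 8.40 CPM in any library, with CD3E at 0. Their part in the results was not tested.

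Cells make serine from 3-phosphoglycerate in a short chain of reactions, and then pass a carbon unit from serine to tetrahydrofolate, which leaves glycine. The mitochondrial arm oxidises this unit step by step to formate, and the cytosolic arm uses formate for purines, thymidylate and methionine. The mitochondrial enzymes SHMT2 and MTHFD2 are known for high expression in proliferating and tumour cells, and MYC proteins and the stress-responsive factor ATF4 are known activators of this pathway.

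Of the 10 genes, 9 passed the filter of at least 10 counts in at least 3 libraries, and PSAT1 did not. PHGDH, MTHFD2 and MTHFD1L rose after induction, by 2.09, 1.70 and 1.19 on the log2 scale. SHMT2 and PSPH lay higher in every induced library than in any control, but missed the threshold. MTHFD2L, ALDH1L2, SHMT1 and MTHFD1 had overlapping groups, and no member passed the threshold as lower. In numbers, 3 of 9 members were called higher at an edgeR adjusted p under 0.05, where 1.02% of the 29086 genes tested were. Among all genes 2.38% were called lower, and 0 of 9 members were. DESeq2 called 4.12% of all genes lower and 0 members, and at an unadjusted p under 0.05 edgeR had 10.6% of all genes and 0 of 9 members lower. With no filter on low counts, 1 of 10 members, PSAT1, was lower at that unadjusted cutoff, as were 3326 of all 45073 genes. Without MYCN-induced replicate 2, 1 of 9 members, ALDH1L2, was lower (log2 fold change -0.43, edgeR unadjusted p = 0.0297), as were 2831 of all 28690 genes. Groups did not overlap, with induced higher, for 5 of 9 members and 11.5% of all genes, and with induced lower for 0 of 9 members and 14.7% of all genes. The median log2 fold change was 0.86 over the 9 members and -0.00038 over all genes tested. Without MYCN-induced replicate 3 the median of the members was 0.34 (all genes, 0.0022), and it was 0.52 over all 10 members, PSAT1 included, with no filter on low counts. In bulk RNA such as this, fewer cells expressing a gene and less RNA per cell cannot be told apart.

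**Figure D1:**
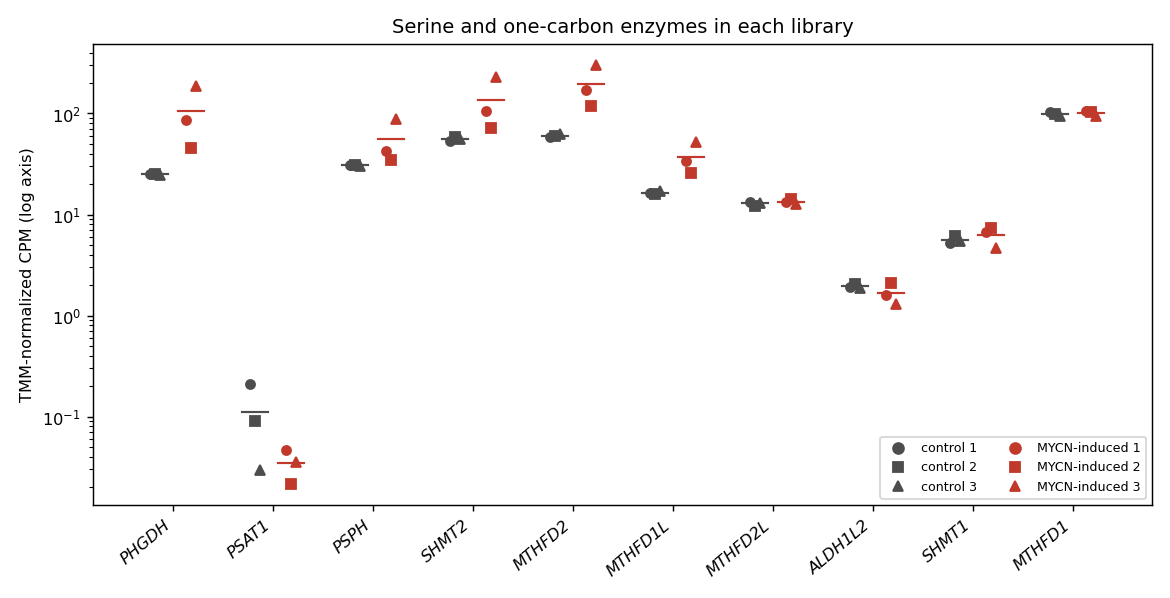
TMM-normalized CPM (log axis) of the 10 genes in each of the 3 control (grey) and 3 MYCN-induced (red) libraries, with a bar at each group mean. PHGDH, PSPH, SHMT2, MTHFD2 and MTHFD1L lie above all controls in every induced library, while PSAT1 is at 0.0902 CPM or less in all but control replicate 1 (0.210 CPM).

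PHGDH, phosphoglycerate dehydrogenase, catalyses the first and committed step of serine synthesis. It lies on chr1:119648411-119744218 (GRCh38, plus strand, ENSG00000092621.13), and none of its 9187 exon bases is shared with another gene. Control replicates 1 to 3 held 25.2, 25.3 and 24.6 CPM of PHGDH, and MYCN-induced replicates 1 to 3 held 86.8, 45.0 and 188 CPM. The controls differed little, whereas the induced libraries were 3.47, 1.80 and 7.51 times the control mean and did not overlap with the controls. The means were 25.0 ± 0.370 CPM (SD, n = 3) and 107 ± 73.5 CPM (SD, n = 3). This gave a log2 fold change of 2.09 (SE 0.44, 95% interval 1.07 to 3.11, edgeR adjusted p = 0.0482), the largest of the 9 members tested. Its adjusted p lay just under the threshold of 0.05, and it was 0.0501 with DESeq2 size factors.

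To show the DNA in front of PHGDH, part of its RefSeq promoter window (250 bases before to 50 after the start, GRCh38.p14) is printed. This is the longest stretch before the start that holds no annotated exon base, at chr1:119711684-119711736, plus strand.
PHGDH: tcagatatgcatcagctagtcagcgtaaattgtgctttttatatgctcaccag
None of the motifs searched on both strands (CACGTG, the E-box core known to be bound by MYC proteins, its variant CACGCG, and TGATGNAA, the element of C/EBP and ATF factors) occurred in the whole 300-base window of PHGDH. That says only that these letters are not in this window.

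PSAT1, phosphoserine aminotransferase, carries out the step after PHGDH, and was close to undetected in these cells. It lies on chr9:78297125-78330093 (plus strand, ENSG00000135069.14). Control replicates 1 to 3 held 22, 8 and 3 counts, and MYCN-induced replicates 1 to 3 held 3, 2 and 3 counts. At this depth that is 0.0296 to 0.210 CPM in controls and 0.0215 to 0.0462 CPM after induction, with overlapping groups. When genes of any count entered the fit, the log2 fold change of PSAT1 was -1.68 (SE 0.74). Its edgeR unadjusted p was 0.0412 and its adjusted p 0.328, so it did not pass the threshold. The processed copies PSAT1P1 to PSAT1P4 held at most 7 counts in any library, so few uniquely aligned reads were assigned to them. Per exon length (TPM, counts per exon base scaled to the same total in each library) PSAT1 averaged 0.0842 TPM in controls, against 4.47 TPM for the enzyme before it, PHGDH, and 18.2 TPM for the enzyme after it, PSPH.

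PSPH, phosphoserine phosphatase, releases free serine in the last step. It lies on chr7:56011051-56051604 (minus strand, ENSG00000146733.14). PSPH was at 31.1, 30.8 and 30.2 CPM in control replicates 1 to 3 and at 42.5, 34.9 and 89.1 CPM in MYCN-induced replicates 1 to 3. All induced libraries were above all controls, MYCN-induced replicate 2 by the least. The log2 fold change was 0.86 (SE 0.31, 95% interval 0.14 to 1.57, edgeR adjusted p = 0.193), and it was 0.34 without MYCN-induced replicate 3. It passed the threshold in 0 of the 12 fits made with edgeR or DESeq2, although its unadjusted p was 0.0252 with all 6 libraries. The unprocessed copy PSPHP1 held 114 to 177 counts per library, against 2728 or more for PSPH.

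SHMT2, the mitochondrial serine hydroxymethyltransferase, moves the carbon unit of serine to folate inside mitochondria. It lies on chr12:57229573-57234935 (plus strand, ENSG00000182199.11). SHMT2 was at 54.0, 58.6 and 55.4 CPM in control replicates 1 to 3 and at 105, 72.2 and 229 CPM in MYCN-induced replicates 1 to 3. The groups did not overlap, but the SD of the induced libraries exceeded the distance between the group means, which were 56.0 ± 2.38 CPM and 135 ± 82.6 CPM (SD, n = 3 each). The log2 fold change was 1.27 (SE 0.37, 95% interval 0.43 to 2.12, edgeR adjusted p = 0.112). Without MYCN-induced replicate 3 it was smaller, at 0.67, and passed the threshold (adjusted p = 0.0381). Of the exon bases of SHMT2, 8.38% are shared with genes on the other strand, mainly ENSG00000276727.

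MTHFD2, the mitochondrial methylenetetrahydrofolate dehydrogenase and cyclohydrolase, had the smallest adjusted p of the members. It lies on chr2:74186172-74217565 (plus strand, ENSG00000065911.13). MTHFD2 was at 58.6, 60.2 and 62.5 CPM in control replicates 1 to 3 and at 169, 118 and 302 CPM in MYCN-induced replicates 1 to 3. Each induced library was thus 2.81, 1.96 and 5.00 times the control mean, and none overlapped with the controls. The means were 60.4 ± 1.95 CPM and 197 ± 95.0 CPM (SD, n = 3 each), and the log2 fold change was 1.70 (SE 0.30, 95% interval 1.01 to 2.39, edgeR adjusted p = 0.0278). Of its 11443 exon bases, 14.1% are shared with genes on the other strand, by length chiefly SLC4A5 over 1324 bases. ENSG00000264324 shares 295 bases and held more counts, 3518, 3041 and 3246 in control replicates 1 to 3. In MYCN-induced replicates 1 to 3 it held 3283, 3514.5 and 6568 counts. How far reads of these genes and of MTHFD2 were shared was not tested. The header of the counts sets no strand option, and under that setting reads from the shared bases cannot be assigned to a strand. The methods name a strand option, so whether the counts were made by strand is not settled. The processed copies MTHFD2P1 to MTHFD2P7 held at most 7.5 counts in any library.

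The only motif match in the MTHFD2 promoter window was CACGCG, read on the minus strand, 24 bases before the start. The longest stretch before the start without an annotated exon base carries it. That stretch is at chr2:74198561-74198609 on the plus strand, with the match in capitals.
MTHFD2: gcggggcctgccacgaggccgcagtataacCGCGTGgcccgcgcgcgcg

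MTHFD1L, the mitochondrial formyltetrahydrofolate synthetase, releases the formate that leaves mitochondria. It lies on chr6:150865679-151101887 (plus strand, ENSG00000120254.16) and shares no exon base with another gene. MTHFD1L was at 16.3, 15.9 and 17.0 CPM in control replicates 1 to 3 and at 33.9, 25.8 and 52.8 CPM in MYCN-induced replicates 1 to 3. The induced libraries were 2.07, 1.58 and 3.22 times the control mean, with no overlap. The log2 fold change was 1.19 (SE 0.23, 95% interval 0.66 to 1.73, edgeR adjusted p = 0.0374).

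MTHFD1L was the only member with both an E-box core and a C/EBP-ATF element in its windows, and its cytosolic counterpart MTHFD1, which did not pass the test, held an E-box core as well. The matches are printed in capitals with their flanks, from the plus strand of GRCh38.p14, at chr6:150866321-150866348, chr6:150866346-150866375 and chr14:64388327-64388354.
MTHFD1L E-box: acgcccggctcCACGTGcgcagccggcc
MTHFD1L C/EBP-ATF: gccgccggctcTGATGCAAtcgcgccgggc
MTHFD1 E-box: cagtccctaagCACGTGggttgggttgt
The RefSeq table held windows for 7 of the 10 genes, and PSPH, SHMT2 and ALDH1L2 had none. CACGTG occurred in 2 of these 7 genes (MTHFD1 and MTHFD1L) and in 8.77% of all genes with a window. CACGCG occurred in 2 of 7 (MTHFD2 and PSAT1) and in 13.5% of all genes, and TGATGNAA in 1 of 7 (MTHFD1L) and in 4.46%. A match is a description of the letters and not evidence of binding.

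MTHFD2L, a paralogue of MTHFD2 in mitochondria, lies on chr4:74114174-74303099 (plus strand, ENSG00000163738.18). It was at 13.4, 12.2 and 13.1 CPM in control replicates 1 to 3 and at 13.3, 14.1 and 12.7 CPM in MYCN-induced replicates 1 to 3. The groups overlapped, and the log2 fold change was 0.05 (SE 0.09, 95% interval -0.16 to 0.26, edgeR adjusted p = 0.817). ALDH1L2, which oxidises formyl-tetrahydrofolate to carbon dioxide in mitochondria, lies on chr12:105019784-105107643 (minus strand, ENSG00000136010.14). Its level was low, at 1.93, 2.03 and 1.89 CPM in control replicates 1 to 3 and 1.6, 2.11 and 1.30 CPM in MYCN-induced replicates 1 to 3. The groups overlapped, with a log2 fold change of -0.22 (SE 0.19, 95% interval -0.65 to 0.21, edgeR adjusted p = 0.591). In the mitochondrial arm, then, 2 of 5 enzymes rose, SHMT2 missed the threshold, and MTHFD2L and ALDH1L2 had overlapping groups.

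Neither cytosolic enzyme passed the test. SHMT1, the cytosolic serine hydroxymethyltransferase on chr17:18327860-18363563 (minus strand, ENSG00000176974.20), was at 5.2, 6.12 and 5.49 CPM in control replicates 1 to 3 and at 6.72, 7.32 and 4.67 CPM in MYCN-induced replicates 1 to 3. Its induced libraries fell on both sides of the controls (log2 fold change 0.15, SE 0.17, 95% interval -0.25 to 0.56, edgeR adjusted p = 0.697). MYCN-induced replicates 1 and 2 lay above all controls, and replicate 3 below them. Without MYCN-induced replicate 3 the log2 fold change of SHMT1 was 0.33 (SE 0.11, edgeR unadjusted p = 0.0187, adjusted p = 0.114). MTHFD1, the trifunctional cytosolic enzyme that loads formate onto folate, lies on chr14:64388031-64463457 (plus strand, ENSG00000100714.17). It was at 104, 97.7 and 94.2 CPM in control replicates 1 to 3 and at 105, 104 and 93.7 CPM in MYCN-induced replicates 1 to 3. The groups overlapped, with a log2 fold change of 0.03 (SE 0.07, 95% interval -0.14 to 0.21, edgeR adjusted p = 0.853). The upper bound of 0.21 lies under the lower bounds of PHGDH, MTHFD2, MTHFD1L and SHMT2. Genes on the other strand share 15.7% of the exon bases of MTHFD1.

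The 5 genes whose induced libraries lay above the controls (PHGDH, PSPH, SHMT2, MTHFD2 and MTHFD1L) all had the same order among the induced libraries, with replicate 3 highest, replicate 1 next and replicate 2 lowest. MYCN had another order, with replicate 2 highest and replicate 3 lowest, although its levels there ran only from 199 to 221 CPM. MTHFD2L, ALDH1L2 and SHMT1 shared the order of MYCN. MYCN-induced replicate 1 had the fewest total counts, 64500589, and replicate 3 was close to replicate 2, at 91041116 against 90540398.

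**Figure D2:**
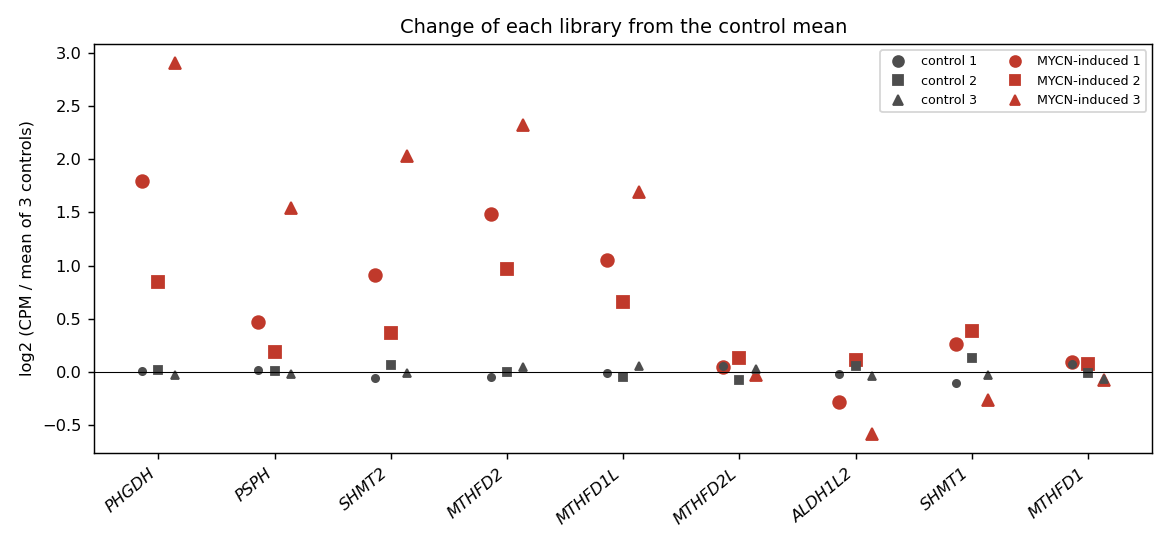
The log2 of each library's CPM over the mean of the 3 controls, for the 9 genes tested (small grey symbols, controls; large red symbols, MYCN-induced; circle, square and triangle for replicates 1, 2 and 3). For the 5 genes on the left and centre the red symbols keep the order triangle, circle, square, with PHGDH in replicate 3 the highest at 7.51 times the control mean and PSPH in replicate 2 the lowest of the 5 genes at 1.14 times.

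Genes of the ATF4 stress response stood highest in the same library. ATF4 was at 189, 189 and 204 CPM in controls and at 319, 300.3 and 547 CPM in MYCN-induced replicates 1 to 3 (log2 fold change 1.0, SE 0.21, edgeR adjusted p = 0.0475). Without any 1 of the controls or without MYCN-induced replicate 1 its adjusted p was over 0.05, with a highest value of 0.212, and without MYCN-induced replicate 3 its log2 fold change was 0.68 (adjusted p = 0.00298). ASNS, asparagine synthetase and a textbook ATF4 target, was at 16.9, 15.9 and 15.8 CPM in controls and at 53.9, 25.6 and 157 CPM after induction, with a log2 fold change of 2.28 (edgeR adjusted p = 0.0780) that was 1.30 (adjusted p = 0.0334) without MYCN-induced replicate 3. There were 10 such context genes (ATF4, DDIT3, ATF5, TRIB3, CHAC1, ASNS, SESN2, DDIT4, VLDLR and CEBPB). Of these, 1 was called higher by edgeR (all genes, 1.02%) and 9 had no overlap between groups, with induced higher (all genes, 11.5%). Their median log2 fold change was 1.96. Without MYCN-induced replicate 3, 6 of them were called higher (all genes, 3.68%) and the median was 0.75. Their part in the rise of the serine and folate enzymes was not tested.

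Leaving out libraries changed the calls. Without any 1 of the 3 controls, or without MYCN-induced replicate 1, edgeR called 0 of 9 members. The share of all genes called higher in those fits was 0.162% without control replicate 1, 0.063% without control replicate 2, 0.105% without control replicate 3 and 0.252% without MYCN-induced replicate 1. At an unadjusted p under 0.05, 4 members were higher without each of the controls, where 6.26%, 4.74% and 6.64% of all genes were for control replicates 1, 2 and 3. Without MYCN-induced replicate 1 it was 5 members and 7.62% of all genes. Without MYCN-induced replicate 2 it was 5 members and 2306 of 28690 genes. Without MYCN-induced replicate 3 it was 6 members and 3551 of 28797 genes. With all 6 libraries it was 5 members and 8.13% of all genes. Without MYCN-induced replicate 2, PHGDH, MTHFD2 and MTHFD1L were called (all genes, 0.589%). Without MYCN-induced replicate 3, PHGDH, MTHFD2, MTHFD1L and SHMT2 were called (all genes, 3.68%), each with a smaller fold change. PHGDH then stood at 1.40, MTHFD2 at 1.26 and MTHFD1L at 0.87 on the log2 scale, with adjusted p of 0.0188, 0.00511 and 0.00942. The direction of all 3 was the same in each of the 6 fits with 1 library left out. Every induced library lay above every control for these genes, so leaving out 1 library could hardly turn it.

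**Figure D3:**
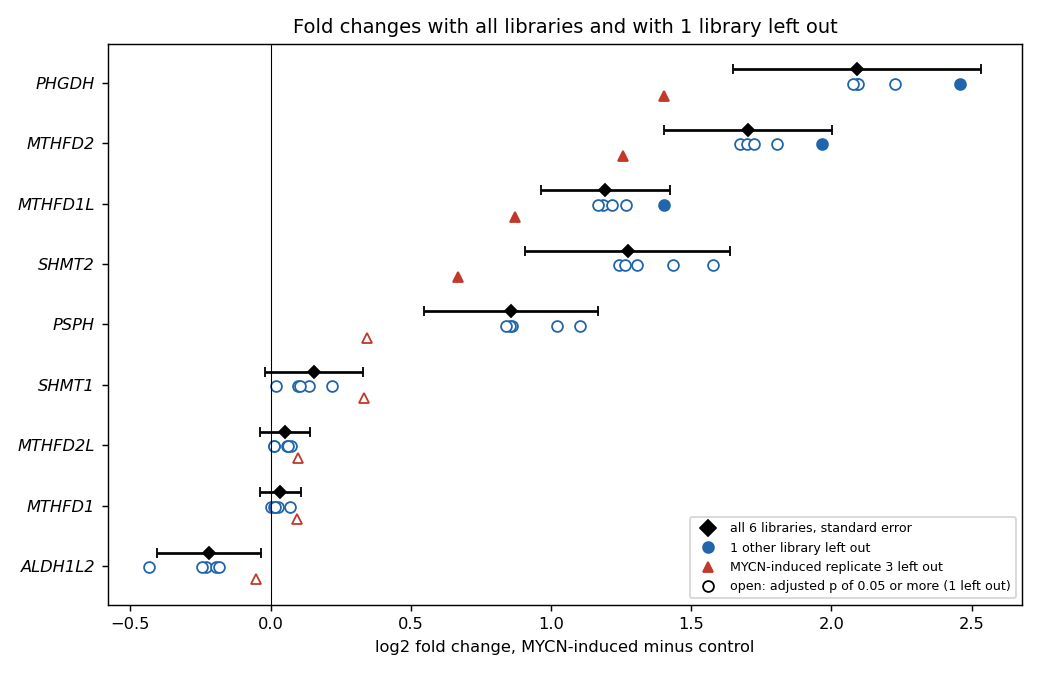
Fitted log2 fold changes (MYCN-induced minus control) of the 9 genes tested, from all 6 libraries (black diamonds, bars are the standard error) and with 1 library left out (circles, or triangles without MYCN-induced replicate 3; filled, adjusted p under 0.05). For PHGDH, MTHFD2, MTHFD1L, SHMT2 and PSPH the triangle is the lowest value of the row, at 1.40, 1.26, 0.87, 0.67 and 0.34.

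Other ways to scale or test left most of these calls in place. With library size alone as scaling, 3 members were called (0.822% of all genes), and with the size factors of DESeq2 in edgeR 2 were (1.16% of all genes), PHGDH being lost. DESeq2 called PHGDH, MTHFD2 and MTHFD1L (3.11% of all genes), with adjusted p of 0.00640, 4.09e-07 and 3.57e-05. With no filter on low counts 4 of 10 were called (1.04% of all genes), SHMT2 being added. With the replicate number as a block, PHGDH, MTHFD2 and MTHFD1L were called (0.911% of all genes).

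The ratio between related enzymes in the same library does not depend on how libraries are scaled. Counts were divided by exon length for this. The ratio of MTHFD2 to MTHFD2L was 3.75, 4.23 and 4.09 in control replicates 1 to 3 and 10.9, 7.19 and 20.4 in MYCN-induced replicates 1 to 3. All induced ratios lay above all control ratios, and the mean log2 ratio was 1.54 higher (2.91-fold; exact permutation test, two-sided, p = 0.1, adjusted over 3 pairs 0.15). The ratio of MTHFD1L, mitochondrial, to MTHFD1, cytosolic, was 0.392, 0.406 and 0.450 in controls and 0.803, 0.620 and 1.41 after induction. Here too the groups did not overlap, with a log2 difference of 1.10 (2.14-fold; exact permutation p = 0.1, adjusted 0.15). SHMT2 to SHMT1 gave 16.5, 15.2 and 16.0 in controls and 24.8, 15.7 and 77.7 after induction, with MYCN-induced replicate 2 inside the range of the controls (log2 difference 0.97, exact permutation p = 0.3, adjusted 0.3). With 3 libraries against 3 this test cannot go below 0.1, so it could not pass 0.05 for any pair.

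**Figure D4:**
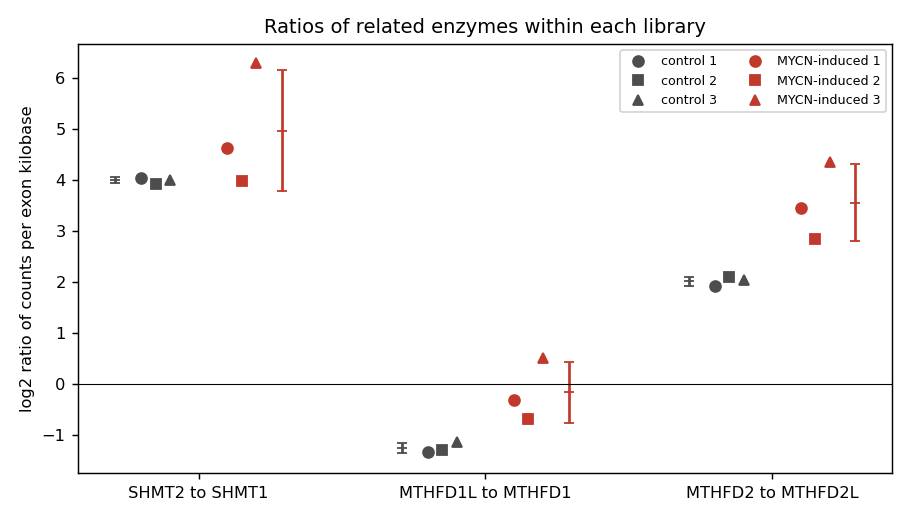
The log2 ratio of counts per exon kilobase between related enzymes in each library (grey, control; red, MYCN-induced; circle, square and triangle for replicates 1, 2 and 3), with mean and SD beside each group. The groups are apart for MTHFD1L to MTHFD1 and MTHFD2 to MTHFD2L, and overlap for SHMT2 to SHMT1.

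Levels of different genes were compared per exon length, as TPM, in which counts are divided by exon length and scaled to the same total in every library. Exon length covers all annotated exon bases of a gene, from 2206 for PSAT1 to 12208 for MTHFD1, whether or not these cells use them. The order by TPM therefore depends on the annotation. By CPM the control means ran in another order, with MTHFD1 at 98.6, MTHFD2 at 60.4, SHMT2 at 56.0, PSPH at 30.7 and PHGDH at 25.0. In controls SHMT2 was highest of the 10 genes at 20.0 ± 1.01 TPM (SD, n = 3), followed by PSPH at 18.2 ± 1.2 and MTHFD1 at 13.3 ± 1.33. The ranges of SHMT2 and PSPH overlapped, but SHMT2 was above PSPH in every control library. MTHFD2 at 8.66 ± 0.172, MTHFD1L at 5.50 ± 0.243 and PHGDH at 4.47 ± 0.280 TPM came next, each clear of its neighbour's range. MTHFD2L, SHMT1, ALDH1L2 and PSAT1 made up the low end, at 2.16, 1.26, 0.338 and 0.0842 TPM. By group means SHMT2 (46.0 ± 22), PSPH (31.6 ± 12.4), MTHFD2 (27.1 ± 9.48) and PHGDH (18 ± 10.2) led after induction. Their ranges overlapped across libraries, but their order relative to one another was the same in each induced library. MTHFD1, the third in controls, was the fifth by group mean after induction at 13.7 ± 2.46 TPM, with MTHFD1L next at 12.2 ± 2.87 TPM. This place differed between libraries. In MYCN-induced replicate 2 MTHFD1 was above PHGDH (15.6 against 8.98 TPM), and in MYCN-induced replicate 3 it was below MTHFD1L (10.9 against 15.3 TPM). The 10 genes summed to 78.0, 74.2 and 69.8 TPM in control replicates 1 to 3 and to 136, 110.1 and 212 TPM in MYCN-induced replicates 1 to 3. The sum lay above all controls in each induced library, with means of 74.0 ± 4.11 and 153 ± 53.2 TPM.

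Genes around the pathway were counted from lists of 52 genes, of which 48 were tested. Of these, 2 were called higher and 0 lower by edgeR, where 1.02% and 2.38% of all genes were, and the median log2 fold change was 0.05. Groups did not overlap for 11 genes with induced higher (all genes, 11.5%) and for 3 with induced lower (all genes, 14.7%). At an unadjusted p under 0.05, 11 of the 48 were higher and 2 lower, against 8.13% and 10.6% of all genes, and DESeq2 called 0 lower. Both genes called belong to the methionine cycle and transsulfuration list (12 of 13 tested, median 0.24). AHCY, which breaks down S-adenosylhomocysteine, was at 177, 194 and 194 CPM in controls and 230, 240.2 and 230.5 CPM after induction (log2 fold change 0.31, SE 0.07, edgeR adjusted p = 0.0457). CBS, which joins serine to homocysteine, was at 18.6, 20.5 and 22.3 CPM in controls and 28.6, 28.9 and 35.4 CPM after induction (log2 fold change 0.60, SE 0.11, edgeR adjusted p = 0.0360). The groups of both genes did not overlap. Without any 1 of the controls, or without MYCN-induced replicate 1 or 2, neither was called, with adjusted p of up to 0.201 (AHCY) and 0.181 (CBS), and AHCY was not called with library size alone as scaling. CTH, the next enzyme of transsulfuration, was at 9.08 to 9.89 CPM in 5 libraries and at 30.7 CPM in MYCN-induced replicate 3 (adjusted p = 0.358), with a log2 fold change of 0.82 that was 0.03 without that library.

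Among serine and folate carriers (11 of 12 tested, median 0.23) edgeR called 0. At an edgeR unadjusted p under 0.05, 5 of them were higher (all genes, 8.13%) and 1 lower (all genes, 10.6%). DESeq2 called SLC1A5 (all genes called higher, 3.11%). SLC1A5, a carrier of neutral amino acids, was at 75.2, 88.5 and 89.5 CPM in controls and at 139, 103 and 264 CPM in MYCN-induced replicates 1 to 3 (log2 fold change 1.0, edgeR adjusted p = 0.128). SLC1A4, which carries serine and alanine, and the glycine carrier SLC6A9 had log2 fold changes of 1.25 and 2.10, with adjusted p of 0.243 and 0.138. MYCN-induced replicate 3 was the highest library for SLC1A5, SLC1A4 and SLC6A9, and without it their log2 fold changes were 0.53, 0.33 and 0.86. Of the serine and glycine neighbours (14 of 15 tested, median 0.05) 0 were called by edgeR or DESeq2. At an edgeR unadjusted p under 0.05, 1 was higher (all genes, 8.13%). Among those with a mean of at least 1 CPM, GCAT, DMGDH and SDS had the largest changes, at 0.41, 1.94 and 0.27. DMGDH was high in MYCN-induced replicate 3 alone and stood at -0.03 without it. Folate handling genes outside the members (11 of 12 tested) had a median of -0.09, with 2 of 11 above 0 (all genes, 49.93%). Of them, 0 were called by edgeR, by DESeq2 or at an unadjusted p under 0.05. Genes not tested for low counts were SPTLC3, FOLR2, ALDH1L1 and BHMT.

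**Figure D5:**
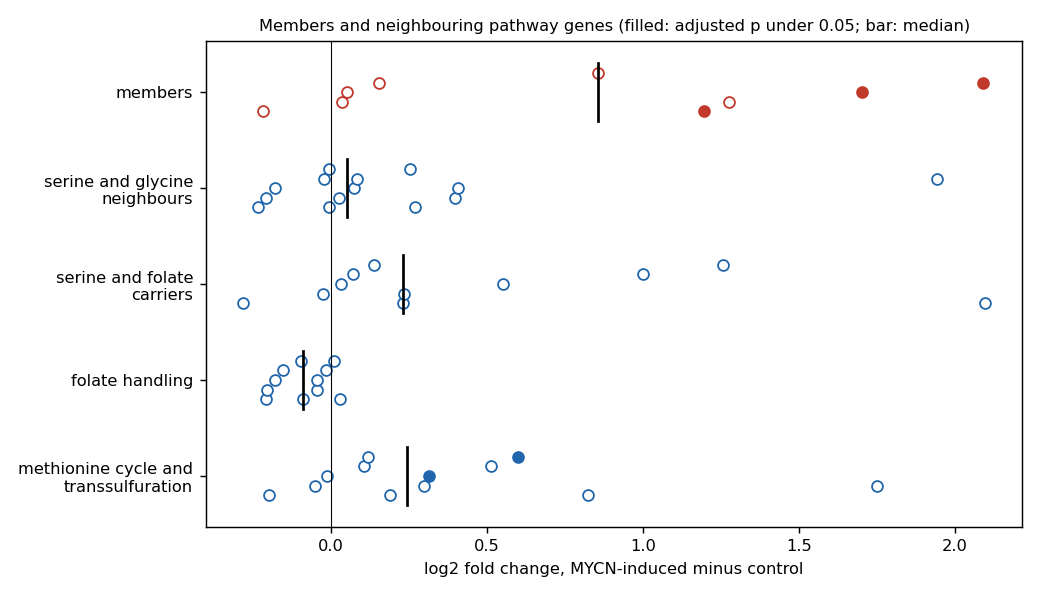
Fitted log2 fold changes (MYCN-induced minus control) of the 9 members tested (red) and of the 48 neighbouring genes in 4 lists (blue), filled where the edgeR adjusted p was under 0.05, with a bar at each median. The members have a median of 0.86 (0.34 without MYCN-induced replicate 3), and the lists have medians between -0.09 and 0.24 (-0.08 and 0.21 without that library).

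MTHFD2 was taken as the reference for genes of like pattern, by Pearson's correlation of log2 CPM over the 6 libraries among 18535 genes with a mean of at least 1 CPM. MTHFD1L was the nearest of all, at 0.999, followed by MRPL9 (0.999), ENSG00000259118 (0.998), ASAP2 (0.998) and SLC7A1 (0.998). PHGDH had a correlation of 0.992 and stood at rank 17, SHMT2 0.963 at rank 240 and PSPH 0.920 at rank 712. MYCN stood at 0.880 and ATF4 at 0.987. MTHFD2L, MTHFD1, SHMT1 and ALDH1L2 had 0.05, -0.10, -0.12 and -0.83. The points share 6 libraries in 2 groups, so any gene that separates the groups and is highest in MYCN-induced replicate 3 has a high value, and these are descriptions without a test. The size of the change was not alike: MRPL9 went from 34.6 to 35.2 CPM in controls to 38.8 to 44.7 CPM after induction, and SLC7A1, a carrier of cationic amino acids, from 83.2 to 88.3 CPM to 147 to 355 CPM.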

How the data were processed

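Total RNA of 3 control and 3 MYCN-induced SK-N-AS libraries was sequenced as read pairs after ribosomal RNA depletion. The authors deposited estimated counts per gene, made from STAR 2.7.1a alignments to GRCh38. The file header names featureCounts 1.6.4 over exons, with pairs shared in fractions between overlapping genes and no strand option, whereas the submitters' processing notes name featureCounts 1.5.1 and the methods add a strand option. Of the deposited values above 0, 31.9 to 33.4% were not whole, and the 92 spike-in entries were at 0 in every library. Sample titles gave the groups and the replicate numbers. Gene names came from GENCODE 44, which named 99.65% of the identifiers (the methods name release 30). Coordinates are those of the deposited files.

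Rounding made the estimated counts whole. A gene entered the test with 10 or more counts in 3 or more libraries, which 29086 did. The test was the quasi-likelihood F test of edgeR 4.0.16 (R 4.3.3) after TMM scaling, with group as its only term, and p-values were adjusted by Benjamini-Hochberg over all genes tested, at a threshold of 0.05. The SE is the log2 fold change divided by the square root of F. TPM were computed from the rounded counts and the exon lengths in the files. Ratios were compared with exact permutation tests in scipy 1.17.1 (Python 3.11.15). For likeness to MTHFD2, 0.01 CPM was added before the log2. Scripts for the fits were tested on simulated data. The alternatives were library size only, DESeq2 size factors, DESeq2 1.42.0, no count filter, a replicate block and leaving out each library. All 10 members were named, together with MYCN, of each neighbour list the genes past the threshold and the 3 with the largest change at a mean of at least 1 CPM, and the 5 genes most like MTHFD2. Some genes that the rule names in the folate handling list are not reported here. MAT2A, SFXN1, TYMS, ATF4, ASNS and overlapping genes stand outside that rule. The members and lists were chosen with earlier results of these data known. Protein sequences were not used here.

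Total counts were 64500589 to 102249336. Counting error is largest, relative to the level, for PSAT1 and then for ALDH1L2, with 104 to 202 counts per library. The biological coefficient of variation was 0.153. If replicates shared a clone or culture history, p-values measure only the spread between these libraries.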

Additional observations from a re-analysis of the deposited data

How the results depend on the processing

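The number of members called higher was 3, and it ranged from 0 to 4 when 1 library was left out. It was 0 without any of the controls or MYCN-induced replicate 1, where fewer samples entered and 0.063 to 0.252% of all genes were called. Called neighbours numbered 2 (all genes called higher, 1.02%) and ranged from 0 to 4 with 1 library left out. The 4 were AHCY, CBS, MAT2A and SFXN1 without MYCN-induced replicate 3, where 3.68% of all genes were called higher. Called neighbours were 1 with library size only (0.822% of all genes) and 4 with DESeq2 (AHCY, CBS, MAT2A and SLC1A5). DESeq2 called 3.11% of all genes higher, and the cause was not tested. Counts of members and neighbours called lower were 0 under every alternative.

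Over the 9 members, 84 fits kept the direction and side of the threshold, 13 lost the call, 2 gained it (SHMT2) and 0 turned direction. Over all settings the edgeR or DESeq2 adjusted p ran from 4.09e-07 to 0.140 for MTHFD2, from 3.57e-05 to 0.181 for MTHFD1L and from 0.00640 to 0.207 for PHGDH. The induced minus control difference of the summed TPM was 78.6, from 48.8 to 99.9 with 1 library left out. It was 157 with TPM over protein-coding genes only, where the total to which the levels are scaled is smaller. Unrounded counts changed no ratio's direction, and with 1 library left out the log2 differences ran from 0.31 to 1.47 (SHMT2 to SHMT1), 0.77 to 1.36 (MTHFD1L to MTHFD1) and 1.14 to 1.89 (MTHFD2 to MTHFD2L).

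The labels and the paper do not say whether same-numbered libraries belong together. Deviations from the group means correlated at 0.207, -0.020 and 0.072 for same-numbered libraries. For differently numbered libraries they correlated at -0.185 to 0.079. With 3 libraries per group these values cannot decide whether the samples are paired. The replicate block called 3 members, PHGDH, MTHFD2 and MTHFD1L, at log2 fold changes of 1.85, 1.59 and 1.13, and 1 neighbour (CBS). In that fit 0.911% of all genes were called higher. Paired differences of the ratios gave an exact sign-flip permutation p of 0.25 for each pair, the smallest that 3 pairs allow. PSAT1, at 2 to 22 counts, is the member that depth limits.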

Other observations

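In MYCN-induced replicate 3, a few low genes next to the pathway stood far from the other 5 libraries. BHMT, which remethylates homocysteine with betaine, held 169 counts there and 4 to 12 counts elsewhere, so it did not reach the filter of 10 counts in 3 libraries. DMGDH, the mitochondrial dimethylglycine dehydrogenase of the same betaine route, was at 4.03 CPM there and at 0.339 to 0.472 CPM in the other 5 libraries. Both values come from 1 library, were noticed after the data were seen and carry no replicate.

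TYMS, which makes thymidylate in the cytosol, was lowest in the same library. It was at 50.2, 48.2 and 49.3 CPM in controls and at 55.4, 53.4 and 30.1 CPM in MYCN-induced replicates 1 to 3. TYMS was named after its values were seen. It did not pass the edgeR test (adjusted p of 0.866), and the difference of this library from the others was not tested.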
